A study of Rattus norvegicus with 23 samples.

Results

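The tumour necrosis factor (TNF) superfamily consists of ligands and of the cell surface receptors that bind them. The 44 protein-coding members in the table of rat cells, of 30452 genes in all, comprised 18 ligands, 7 death domain receptors, 16 receptors that signal through TRAF adaptors and 3 decoy receptors. Members were defined by gene symbol. The family itself was chosen on the basis of earlier results of these data, in which the changes of Eda2r and Tnfsf18 with pH stood out, so the values of these 2 genes are given as a description with no test.

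The study compared established rat kidney cell lines, the epithelial line NRK-52E (NRKE in the labels) and the fibroblast line NRK-49F (NRKF), each kept in monoculture. All cells went 24 h without serum and were then kept for 48 h at pH 7.4 or at pH 6.0, set with HCl, before RNA sequencing. There were n = 6 samples of NRK-52E cells at each pH, n = 6 of NRK-49F cells at pH 7.4 and n = 5 at pH 6.0. The labels place the samples in numbered sample groups (1 and 3 of NRK-52E, 4 and 6 of NRK-49F) without saying what a sample group is. Each kind of cell is represented by 1 line, and no sample group holds both lines, so cell type, line and sample group cannot be told apart in comparisons between the lines. No label says whether the samples of a group came from separate cultures, so p-values measure the spread between these samples, which may be technical.

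TNF ligands are mostly trimeric proteins, held in the membrane or shed from it, and each is recognised by 1 or a few receptors. Receptors with a death domain, such as Fas and Tnfrsf1a, can recruit adaptors that start caspase activity, whereas most other receptors bind TRAF proteins and activate NF-kappaB and MAP kinases. Decoy receptors bind ligands without passing on a signal. In the kidney, tubular epithelial cells and fibroblasts both carry receptors of the family, and much of the ligand in inflamed tissue comes from immune cells.

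Total counts were 16412564 to 34250535 per sample. Levels are given as FPM (fragments per 1000000, with the library size scaled by TMM) and are compared between samples for the same gene and never between genes, since transcript lengths were not used. At most 3 counts were treated as not detected, which corresponds to 0.0839 to 0.203 FPM depending on the library and covers counting error only. The markers Pdgfra, Col1a1 and Lum averaged higher in NRK-49F cells, and Col3a1 in NRK-52E cells. Of 7 epithelial markers in the table, Epcam, Esrp1, Cdh1, Krt18 and Cldn4 were at or near 0 in both lines, Krt8 was at 499 FPM in NRK-52E cells and 839 FPM in NRK-49F cells at pH 7.4, and Krt7 averaged higher in NRK-52E, at 21.8 against 1.42 FPM at pH 7.4 and 4.04 against 0.379 FPM at pH 6.0. Of the 7, Krt7 was thus the one in which the means followed the epithelial label at both pH values at levels above detection. The leukocyte markers Ptprc, Adgre1, Itgam and Nkg7 were at or near 0 throughout, with 8 leukocyte markers summing to 0.222 to 3.00 FPM per sample.

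Of the 18 ligands, 6 were not detected in any sample. Cd70, Cd40lg, Tnfsf8 and Tnfsf14, which are made mainly by activated lymphocytes and other immune cells, had 0 counts in every sample, as did Tnfsf11. Lta reached 1 count and the receptor Tnfrsf14 reached 3 counts at most, so 7 members, 6 of them ligands, were below detection. Tnf itself did not exceed 4 counts in a sample. Its highest level was 0.144 FPM, in an NRK-49F sample at pH 6.0. Tnfsf4 reached 4 counts, Tnfrsf19 5, Faslg and Tnfrsf10b 7, Tnfrsf11a and Tnfrsf13b 8, Tnfrsf17 10, Tnfsf13b 17 and Edar 27. These 10 members and the 7 below detection did not pass the filter on low counts and were not tested. The other 27 were tested, and 22 members reached a mean of 1 FPM in at least 1 of the 4 conditions, all of them among those tested. A member that is low in 1 condition passed the filter through another, so counts over the tested members are a description of these and not of the family.

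By the median over samples, 24 members were detected in NRK-52E cells at pH 7.4, 24 at pH 6.0, 24 in NRK-49F cells at pH 7.4 and 23 at pH 6.0. In all 4 conditions 17 members were detected, and 13 in none. The receptors Ltbr and Tnfrsf12a were among those with many reads in every sample, with up to 6332 and 5025 counts. A mean of 1 FPM in a condition was reached by all 3 decoy receptors, 5 of the 7 death domain receptors, 7 of the 16 TRAF-binding receptors and 7 of the 18 ligands. Transcript lengths were not used, so these counts do not rank the classes.

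**Figure D1:**
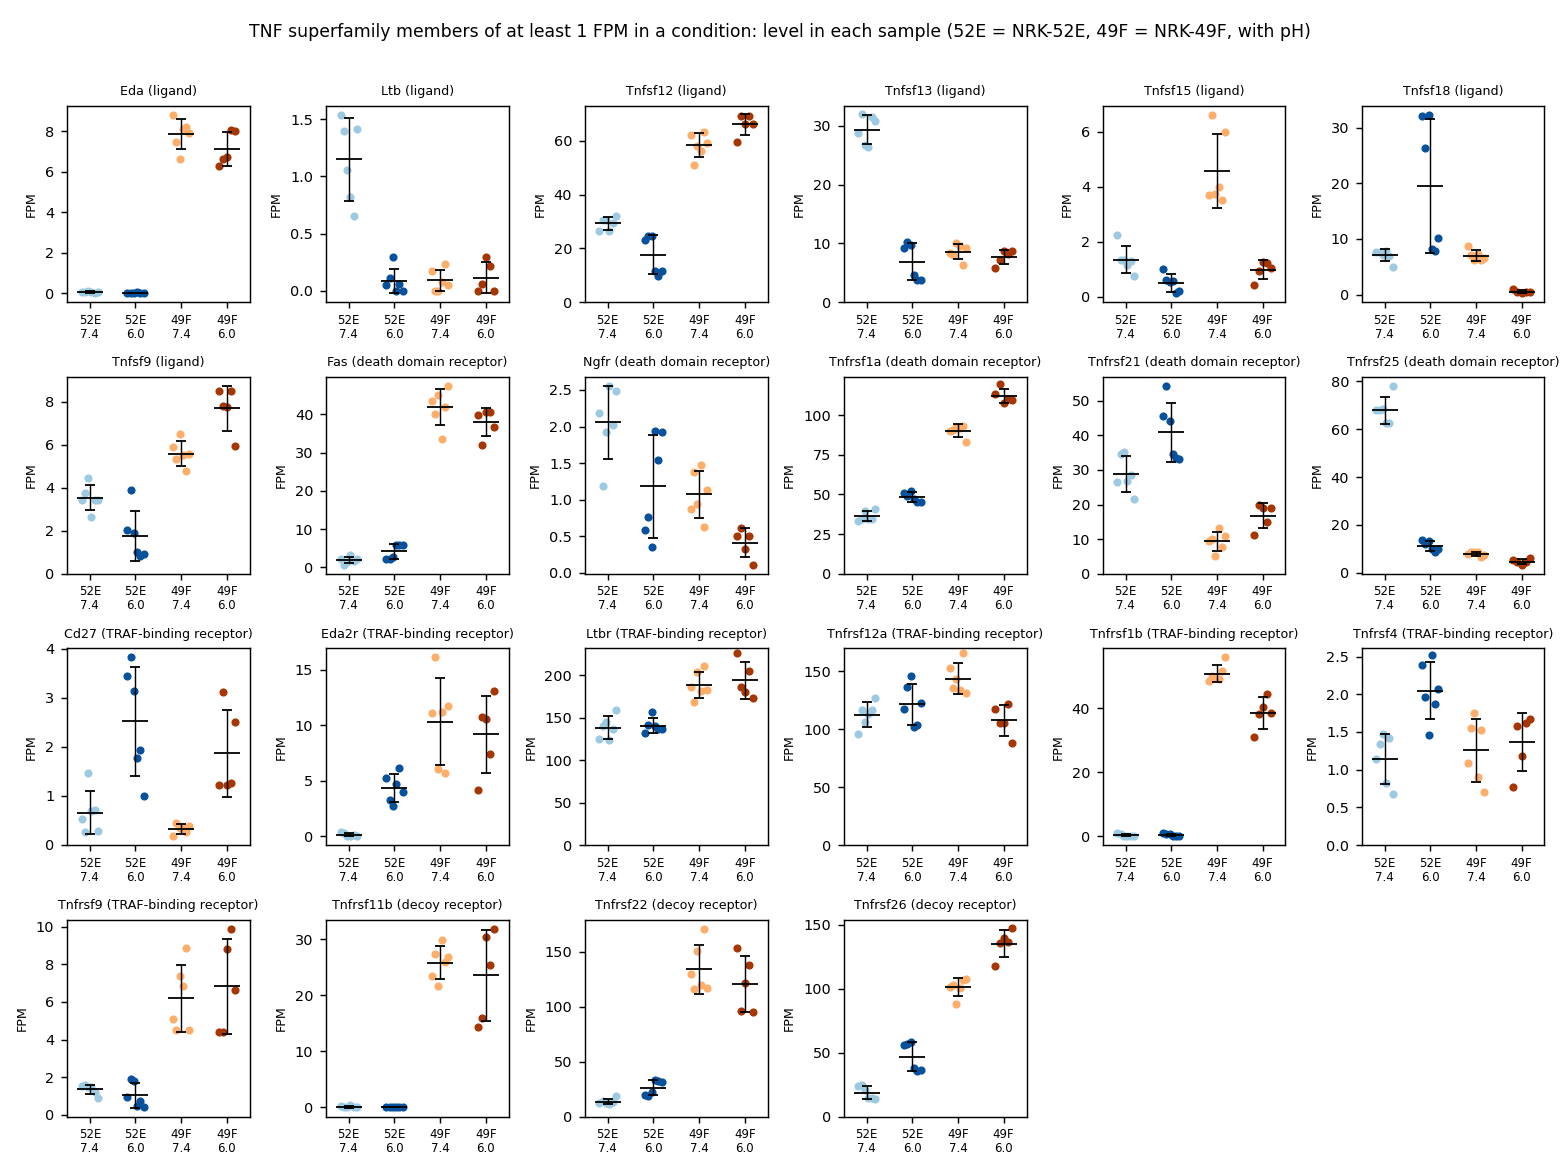
Level in FPM (vertical axes, linear) of the 22 members with a mean of at least 1 FPM in a condition, by cell line and pH (horizontal axes). Points are samples, bars are the mean ± SD (n = 6, 6, 6 and 5). Tnfrsf25 falls from 62.5 to 78.0 FPM at pH 7.4 to 8.83 to 13.7 FPM at pH 6.0 in NRK-52E cells, while Ltbr stays between 124 and 160 FPM there.

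The first comparison asked how the members' RNA levels differed after 48 h at pH 6.0. Of the 27 tested members, 21 differed between pH 6.0 and pH 7.4 in NRK-52E cells, 10 higher and 11 lower (edgeR quasi-likelihood test, Benjamini-Hochberg adjusted p under 0.05). Without Eda2r and Tnfsf18 these were 19 of 25, 8 higher and 11 lower. This compares with 61.2% of the 14777 genes tested, 24.7% higher and 36.6% lower, so that most genes of this line passed the test and the members' count is read as a description. The median log2 fold change of the tested members was 0.02, but -0.35 without Eda2r and Tnfsf18, and -0.12 over all genes. In NRK-49F cells 9 of 27 members differed, 4 higher and 5 lower, against 28.9% of all genes, 14.5% higher and 14.4% lower. The median of the tested members was -0.13, and 9e-04 over all genes. Without Eda2r and Tnfsf18, 8 of 25 differed, 4 higher and 4 lower, and the median of the 25 was 0.

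The receptors that rose in both lines were Cd27, Tnfrsf1a, Tnfrsf21 and Tnfrsf26. Ngfr, Tnfrsf25 and Tnfsf15 fell in both. Tnfrsf12a fell in NRK-49F cells alone among the calls. Other members, Eda2r among them, were called in NRK-52E cells alone, the line in which 61.2% of all genes were called against 28.9% in NRK-49F cells. A call in 1 line alone does not show a difference between the lines, which has its own test below. Both lines' changes were computed from separate control samples but in 1 model, which shares the estimate of the spread.

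**Figure D2:**
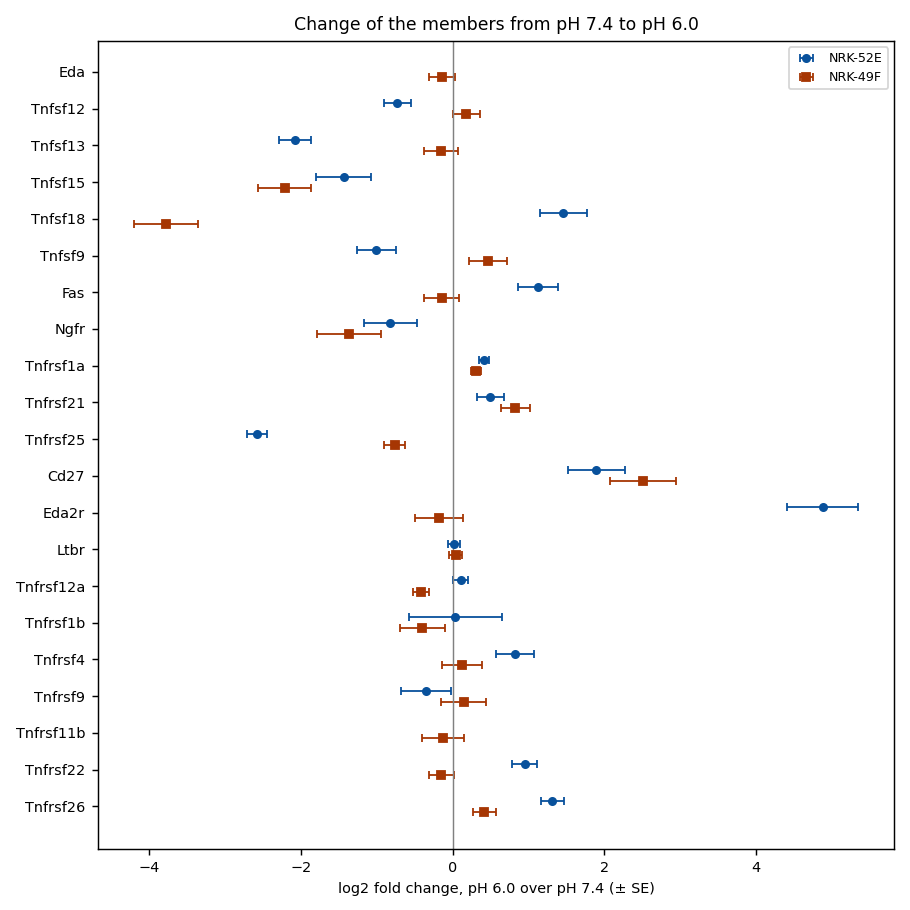
Log2 fold change of each member at pH 6.0 over pH 7.4 (horizontal axis, ± SE) in NRK-52E cells (circles) and NRK-49F cells (squares), ordered by role. Eda and Tnfrsf11b are not drawn for NRK-52E cells, where they were at or near the detection limit, and Ltb, near it in 3 of the 4 conditions, is not drawn. Eda2r and Tnfrsf1b are drawn, but neither was detected by the median in NRK-52E cells at pH 7.4. Their values for that line are no measure of size. Tnfsf18 lies at 1.46 for NRK-52E and -3.78 for NRK-49F, and Tnfrsf25 lies below 0 in both.

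Eda2r and Tnfsf18 are described first. Eda2r, on chromosome X, encodes the receptor of an ectodysplasin isoform. In NRK-52E cells at pH 7.4 its levels were 0.336, 0.269 and 0.0377 FPM in sample group 1 and 0.0455, 0.0545 and 0 FPM in sample group 3, and at pH 6.0 they were 5.26, 3.22 and 2.68 FPM and 4.66, 6.12 and 3.95 FPM. Every sample at pH 6.0 was thus above every sample at pH 7.4. The fitted log2 fold change of 4.88 is no measure of size, as the level at pH 7.4 was not detected by the median. In NRK-49F cells the gene ranged from 5.73 over a median of 11.1 to 16.1 FPM at pH 7.4 and was at 4.18, 10.7, 10.6, 7.36 and 13.1 FPM at pH 6.0, and these ranges overlapped. At pH 6.0 the range in NRK-52E cells thus overlapped that of NRK-49F cells, from which it had been apart at pH 7.4. The mean at pH 6.0 was still lower in NRK-52E cells, at 4.31 FPM against 9.18 FPM in NRK-49F cells.

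Tnfsf18, on chromosome 13, encodes the ligand of the receptor Tnfrsf18 on T cells. At pH 7.4 its levels overlapped between the lines, at 5.04 to 7.92 FPM in NRK-52E cells (median 7.37) and 6.15 to 8.71 FPM in NRK-49F cells (median 6.84). In NRK-52E cells at pH 6.0 it was 32.0, 26.3 and 32.3 FPM in sample group 1, but 8.12, 7.89 and 10.3 FPM in sample group 3. In NRK-49F cells at pH 6.0 it was 0.968, 0.549, 0.223, 0.433 and 0.444 FPM. The fall in NRK-49F cells was therefore present in all 5 samples, whereas in NRK-52E cells sample group 1 carried the larger part of the rise. The receptor Tnfrsf18 did not exceed 1.08 FPM in a sample.

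The 250 bases upstream of the annotated start are shown for these 2 genes, the ones that led to the choice of the family, and for Fas and Ltb, described below, whose windows hold a match to the NF-kappaB motif. The windows are those of RefSeq on the GRCr8 assembly, which is not the build of the counts, and the first listed start was taken. Capitals mark matches on either strand to NF-kappaB (searched by its consensus of 10 letters) and to AP-1 (TGANTCA). Eda2r lies on the minus strand at chrX:66280621-66280870, Tnfsf18 on the plus strand at chr13:76366603-76366852, Fas on the plus strand at chr1:241211905-241212154 and Ltb on the minus strand at chr20:3634055-3634304.
Eda2r: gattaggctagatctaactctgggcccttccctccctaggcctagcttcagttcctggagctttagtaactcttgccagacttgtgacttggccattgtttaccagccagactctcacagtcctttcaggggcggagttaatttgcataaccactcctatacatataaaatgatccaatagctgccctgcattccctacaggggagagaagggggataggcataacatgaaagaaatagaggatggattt
Tnfsf18: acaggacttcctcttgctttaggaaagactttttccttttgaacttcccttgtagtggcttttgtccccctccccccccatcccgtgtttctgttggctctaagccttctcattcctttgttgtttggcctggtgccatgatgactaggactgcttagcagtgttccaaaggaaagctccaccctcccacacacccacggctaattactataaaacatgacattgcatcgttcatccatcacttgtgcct
Fas: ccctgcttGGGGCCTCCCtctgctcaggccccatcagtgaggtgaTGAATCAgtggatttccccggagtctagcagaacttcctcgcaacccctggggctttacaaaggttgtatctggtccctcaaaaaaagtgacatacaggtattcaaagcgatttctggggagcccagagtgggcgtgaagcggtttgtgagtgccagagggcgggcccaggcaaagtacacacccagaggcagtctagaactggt
Ltb: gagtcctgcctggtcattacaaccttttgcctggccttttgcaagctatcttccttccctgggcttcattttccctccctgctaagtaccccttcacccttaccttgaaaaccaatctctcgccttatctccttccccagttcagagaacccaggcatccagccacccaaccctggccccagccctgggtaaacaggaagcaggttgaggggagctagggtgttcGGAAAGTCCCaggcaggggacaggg
A window was found for 33 of the 44 members, of which 5 (Fas, Lta, Ltb, Tnfrsf8 and Tnfsf14) held the NF-kappaB motif and 3 (Fas, Tnfrsf1b and Tnfrsf8) the AP-1 motif. Over 27457 genes with such a window these shares were 6.41% and 6.36%. The windows of Eda2r and Tnfsf18 held neither, nor a p53 half-site (6.56% of all windows, 4 members) or the C/EBP-ATF composite TGATGNAA (3.27% of all windows, 0 of 33 members). A match describes letters in the window and no binding.

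Among the ligands, 4 fell in NRK-52E cells at levels above detection at both pH values by the median, and Ltb fell to levels near the detection limit. Tnfsf13 (APRIL), a factor of B cells and plasma cells, fell from 26.3 to 32.0 FPM (median 29.7) at pH 7.4 to 3.75 to 10.3 FPM (median 6.93) at pH 6.0, with no overlap. This was a log2 fold change of -2.08 ± 0.21 (SE, adjusted p = 1.19e-08). The NRK-49F levels were 6.43 to 10.1 FPM at pH 7.4 and 5.81, 7.13, 8.64, 8.23 and 8.78 FPM at pH 6.0, which did not pass the test (-0.15 ± 0.22, adjusted p = 0.648). At pH 7.4 Tnfsf13 was the higher in NRK-52E cells in every sample, and at pH 6.0 the ranges of the lines overlapped.

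Tnfsf12 (TWEAK), the ligand of Tnfrsf12a, is the neighbour of Tnfsf13 on chromosome 10, and in RefSeq both overlap Eif4a1l. The study's methods list the counting options without a strand option, so reads of overlapping genes may not be told apart. Tnfsf12 went in NRK-52E cells from 26.4 to 32.0 FPM to 9.76 to 24.7 FPM, and fell by 0.73 ± 0.18 on the log2 scale (adjusted p = 0.00101). In NRK-49F cells the levels were 51 to 63.3 FPM at pH 7.4 and 59.5, 69.1, 66.3, 69.1 and 66.1 FPM at pH 6.0, with a log2 fold change of 0.18 ± 0.18 (adjusted p = 0.492).

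Tnfsf9, the ligand of the costimulatory receptor Tnfrsf9, ranged from 2.64 to 4.45 FPM in NRK-52E cells at pH 7.4 and from 0.827 to 3.88 FPM at pH 6.0. The ranges overlapped through 1 sample of sample group 1, and the fall was 1.01 ± 0.26 on the log2 scale (adjusted p = 0.00173). Levels in NRK-49F cells were 4.76 to 6.49 FPM and, at pH 6.0, 8.51, 7.80, 7.75, 8.48 and 5.94 FPM. This difference of 0.47 ± 0.25 did not pass the test in the model of all samples (adjusted p = 0.17), but did when NRK-49F cells were analysed alone (0.46, adjusted p = 0.0123). Its receptor Tnfrsf9 did not pass the test in either line.

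Tnfsf15, whose receptor is Tnfrsf25, fell in both lines. The fall in NRK-49F cells was from 3.53 to 6.63 FPM (median 3.85) to 0.408, 0.915, 1.26, 1.23 and 1.06 FPM, with no overlap (-2.21 ± 0.35, adjusted p = 3.36e-05). In NRK-52E cells it went from 0.736 to 2.24 FPM to 0.110 to 1.01 FPM (-1.44 ± 0.36, adjusted p = 0.00144). The receptor fell in both lines as well, as given below.

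Ltb, which forms membrane-bound lymphotoxin together with Lta, was at 1.54, 1.40 and 1.06 FPM in sample group 1 of NRK-52E cells at pH 7.4 and at 0.819, 0.654 and 1.42 FPM in sample group 3. At pH 6.0 it was at or under 3 counts in all samples but 1, which had 10 counts or 0.291 FPM, and the groups did not overlap (adjusted p = 3.74e-05). No fold is given, since the level at pH 6.0 was not detected by the median. Its level in NRK-49F cells stayed under 0.297 FPM at both pH values. Eda, the ligand ectodysplasin, was not detected in NRK-52E cells, where no sample exceeded 0.113 FPM, so that its call there is of counts of at most 3 and no fold is given. In NRK-49F cells it was at 6.63 to 8.82 FPM at pH 7.4 and at 6.27, 6.65, 6.71, 8.05 and 8.0 FPM at pH 6.0 (-0.14 ± 0.17, adjusted p = 0.575).

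The death domain receptors moved in different directions. Tnfrsf25, a receptor known from T cells, fell in NRK-52E cells from 68.2, 67.9 and 68.2 FPM in sample group 1 and 62.5, 62.7 and 78.0 FPM in sample group 3 to 13.7, 12.2 and 13.4 FPM and 10.1, 8.83 and 9.77 FPM. The level was thus 5.98-fold lower at pH 6.0 (log2 fold change -2.58 ± 0.13, adjusted p = 9.13e-14). The level in NRK-49F cells was 6.79 to 8.90 FPM (median 8.13) at pH 7.4 and 5.50, 4.33, 3.34, 4.37 and 6.06 FPM at pH 6.0, again without overlap (-0.76 ± 0.14, adjusted p = 2e-04). It was the member with the smallest adjusted p in NRK-52E cells among the 25 tested besides Eda2r and Tnfsf18.

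Tnfrsf1a, the broadly expressed receptor of TNF, rose in both lines by a small and even amount. In NRK-52E cells it went from 33.5 to 40.9 FPM (median 34.6) to 45.0 to 52.5 FPM (median 47.9), and in NRK-49F cells from 82.8 to 93.5 FPM (median 91.5) to 113, 120, 108, 110 and 110 FPM. There was no overlap in either line, with log2 fold changes of 0.41 ± 0.06 (adjusted p = 6.62e-06) and 0.31 ± 0.07 (adjusted p = 0.000934). Tnfrsf21, a death domain receptor of neurons and lymphocytes, rose from a median of 27.7 to 39.4 FPM in NRK-52E cells (0.50 ± 0.18, adjusted p = 0.0182) and from 9.79 to 18.9 FPM in NRK-49F cells (0.83 ± 0.19, adjusted p = 0.00209). Its ranges overlapped in both lines, and without replicate A025 the call in NRK-52E cells was lost (adjusted p = 0.0567).

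In NRK-52E cells Fas, the receptor that starts apoptosis on binding Faslg, went from 0.646 to 3.09 FPM (median 1.89) to 2.28, 2.29 and 2.77 FPM in sample group 1 and 5.76, 5.79 and 5.97 FPM in sample group 3. The log2 fold change was 1.13 ± 0.27 (adjusted p = 0.000835). In NRK-49F cells Fas was far higher, at 33.6 to 47.4 FPM at pH 7.4, and at 39.7, 32.1, 40.7, 40.7 and 36.7 FPM at pH 6.0 it did not pass the test (-0.14 ± 0.23, adjusted p = 0.692). Faslg was near 0 throughout, with at most 7 counts. Ngfr, the neurotrophin receptor of the family, fell in NRK-49F cells from 0.633 to 1.48 FPM to 0.510, 0.610, 0.334, 0.505 and 0.111 FPM (-1.36 ± 0.42, adjusted p = 0.0175). Its fall in NRK-52E cells, from a median of 2.1 to 1.15 FPM, lay at the threshold (-0.82 ± 0.35, adjusted p = 0.0466) and was lost when any of 14 single replicates was left out.

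Of the receptors that signal through TRAF proteins, Cd27 rose in both lines. In NRK-52E cells it was at 0.269 to 1.47 FPM (median 0.607) at pH 7.4 and at 0.986 to 3.82 FPM (median 2.54) at pH 6.0 (1.90 ± 0.38, adjusted p = 0.00014). In NRK-49F cells it went from 0.175 to 0.445 FPM to 1.22, 3.11, 1.22, 1.26 and 2.50 FPM, without overlap (2.51 ± 0.43, adjusted p = 9.69e-05). Cd27 is a costimulatory receptor of T and B cells, and its ligand Cd70 had 0 counts. The 8 leukocyte markers summed to 1.20 to 2.21 FPM at pH 7.4 and 1.71 to 3.00 FPM at pH 6.0 in NRK-52E cells, and to 0.222 to 0.595 FPM and 0.333 to 0.866 FPM in NRK-49F cells. The T cell marker Cd3e averaged 0.569 and 0.109 FPM in NRK-52E cells and was at 0 in NRK-49F cells.

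Tnfrsf12a, the receptor of Tnfsf12 and a gene known from injured epithelium, was at 96.1 to 127 FPM in NRK-52E cells at pH 7.4 and at 102 to 146 FPM at pH 6.0 (0.11 ± 0.10, adjusted p = 0.34). In NRK-49F cells it fell from 131 to 166 FPM to 118, 105.4, 105.4, 122 and 88 FPM, without overlap (-0.42 ± 0.10, adjusted p = 0.00315). Ltbr, the receptor of lymphotoxin, gave log2 fold changes of 0.02 ± 0.08 and 0.04 ± 0.08 in the lines and did not pass the test in either (adjusted p = 0.804 and 0.76). With levels of 124 to 227 FPM it was among the members whose change was measured with the smallest error.

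Tnfrsf4, a costimulatory receptor, rose in NRK-52E cells from a median of 1.25 to 2.02 FPM (0.82 ± 0.25, adjusted p = 0.00632) and had medians of 1.31 and 1.59 FPM in NRK-49F cells (0.12 ± 0.26, adjusted p = 0.772). Tnfrsf9 had medians of 1.46 and 0.837 FPM in NRK-52E cells and of 5.95 and 6.61 FPM in NRK-49F cells, and passed the test in neither line (adjusted p = 0.378 and 0.758). Tnfrsf1b, the TNF receptor known from immune and endothelial cells, lay in NRK-49F cells at 48.5 to 55.8 FPM at pH 7.4 and, with no overlap, at 31.0, 38.3, 40.4, 44.5 and 38.3 FPM at pH 6.0. This did not pass the test in the model of all samples (-0.40 ± 0.29, adjusted p = 0.34) but did when NRK-49F cells were analysed alone (-0.41, adjusted p = 0.00279). In NRK-52E cells Tnfrsf1b was at 0 to 0.895 FPM at pH 7.4 and 0 to 0.956 FPM at pH 6.0, and its spread there enters the shared model.

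The decoy receptors Tnfrsf22 and Tnfrsf26 are neighbours on chromosome 1 and resemble each other in sequence. Reads that map to several places were counted, so their levels may not be separate. Tnfrsf26 rose in NRK-52E cells from 23.9, 24.7 and 21 FPM in sample group 1 and 14.9, 14.3 and 13.9 FPM in sample group 3 to 55.9, 56.4 and 58.5 FPM and 38, 35.5 and 36.3 FPM. The log2 fold change was 1.31 ± 0.15 (adjusted p = 8.41e-08). The levels of the sample groups did not overlap at either pH, while no difference between their changes was shown (-0.05 ± 0.12, adjusted p = 0.851). In NRK-49F cells Tnfrsf26 rose from 88.3 to 108 FPM to 118, 136, 139, 136 and 147 FPM (0.42 ± 0.15, adjusted p = 0.0434), and this call was lost when any of 10 single replicates was left out.

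In NRK-52E cells Tnfrsf22 rose from 11.7 to 18.3 FPM (median 12.9) to 18.3 to 33.2 FPM (median 27.1), with a log2 fold change of 0.95 ± 0.16 (adjusted p = 2.46e-05). In NRK-49F cells it was at 116 to 171 FPM at pH 7.4 and at 153, 96.2, 121, 138 and 95.7 FPM at pH 6.0 (-0.15 ± 0.16, adjusted p = 0.539). Tnfrsf11b (osteoprotegerin), the soluble decoy of Tnfsf11 and Tnfsf10, was at 21.6 to 29.8 FPM in NRK-49F cells at pH 7.4. At pH 6.0 it was at 14.3 and 15.9 FPM in sample group 4 and at 30.4, 25.4 and 31.8 FPM in sample group 6, and the change did not pass the test (-0.13 ± 0.28, adjusted p = 0.772).

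In NRK-52E cells Tnfrsf11b was at 0.308, 0.0538 and 0 FPM in sample group 1 at pH 7.4, at 0.364, 0 and 0 FPM in sample group 3, and at 0 in all samples at pH 6.0, so its call there rests on 2 samples and no fold is given. Replicate A021, 1 of these 2, also held the highest level among NRK-52E samples of genes of the NRK-49F line. Pdgfra was at 4.73 FPM and Vcam1 at 4.00 FPM there, against 0.679 to 2.21 FPM and 0.273 to 1.32 FPM in the other samples at pH 7.4 and means of 306 and 272 FPM in NRK-49F cells at pH 7.4. Of 10 fibroblast markers, 6 to 8 were above 3 counts in NRK-52E samples at pH 7.4 and 3 to 4 at pH 6.0, and Dcn and Thy1 were at 0 in the line. Their sums of 4902 to 8102 FPM and 1830 to 3110 FPM were mostly Col3a1, which was higher in NRK-52E than in NRK-49F cells. The other 9 summed to 65.8 to 224 FPM at pH 7.4 and 26.4 to 47.1 FPM at pH 6.0 in NRK-52E cells, against 9377 to 12350 FPM and 7011 to 9346 FPM in NRK-49F cells. The part of this in the values of Tnfrsf11b, Tnfrsf1b and Eda in NRK-52E cells was not tested.

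Another 5 tested members had means under 1 FPM in every condition. Tnfrsf8 (CD30) was at 0.491 to 1.45 FPM in NRK-52E cells at pH 7.4 and at or under 3 counts in every sample at pH 6.0, which is at least 6.74-fold lower against the level of 3 counts (edgeR adjusted p = 2.02e-06). Cd40 fell in NRK-52E cells from 0.382 to 0.830 FPM to 0 to 0.382 FPM (adjusted p = 0.00436) and was at 0 in every NRK-49F sample. In NRK-52E cells Tnfrsf13c, a receptor of B cells, rose from 0 to 0.151 FPM to 0.197 to 0.983 FPM (adjusted p = 0.000133). Tnfrsf18 and Tnfsf10, the ligand known as TRAIL, did not pass the test in either line. Among the untested members, picked after their values were seen, Tnfsf13b was at 0 to 0.252 FPM at pH 7.4 and 0.367 to 0.743 FPM at pH 6.0 in NRK-52E cells, and Tnfrsf17 was at 0.168 to 0.377 FPM and 0 to 0.116 FPM.

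The design also allows the changes of the lines to be set against each other. The change from pH 7.4 to pH 6.0 differed between the lines for 13 of 27 tested members, and for 11 of 25 without Eda2r and Tnfsf18, against 41.4% of all genes, a share near that of the 25. Tnfsf13 fell more in NRK-52E cells, with a difference of -1.92 ± 0.30 in log2 fold change (adjusted p = 2.01e-05), as did Tnfrsf25 (-1.82 ± 0.19, adjusted p = 5.47e-08). Tnfsf9 (-1.47 ± 0.36, adjusted p = 0.00199) and Tnfsf12 (-0.91 ± 0.25, adjusted p = 0.00551) also had the lower change in NRK-52E cells. Ltb was called as well (adjusted p = 0.00609), although it was not detected by the median in 3 of the 4 conditions, and lost the call in sample groups 1 and 4 alone (adjusted p = 0.71). In that analysis the calls of Tnfsf9 (adjusted p = 0.0634), Tnfsf12 (adjusted p = 0.0846) and Fas (adjusted p = 0.0813) were lost too.

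The opposite order was found for 5 receptors besides Eda2r. Fas (1.27 ± 0.35, adjusted p = 0.00585), Tnfrsf22 (1.10 ± 0.23, adjusted p = 0.000531), Tnfrsf26 (0.90 ± 0.22, adjusted p = 0.00175), Tnfrsf12a (0.53 ± 0.14, adjusted p = 0.00417) and Tnfrsf13c (3.11 ± 0.88, adjusted p = 0.00684) had the higher change in NRK-52E cells. The value of Tnfrsf13c is no measure of size, as this gene was not detected by the median in NRK-52E cells at pH 7.4. Tnfrsf11b was also called (adjusted p = 0.0188), from levels near 0 in NRK-52E cells, and lost the call without replicate A021 (adjusted p = 0.0556) and in either pair of sample groups alone (adjusted p = 0.132 and 0.0787). No difference between the changes was shown for Cd27, Tnfrsf1a, Tnfrsf21, Ngfr and Tnfsf15, the members other than Tnfrsf25 and Tnfrsf26 that moved the same way in both lines (adjusted p = 0.42, 0.414, 0.338, 0.458 and 0.233).

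Between the lines most tested members differed at either pH. At pH 7.4, 25 of the 27 differed, 10 higher and 15 lower in NRK-52E than in NRK-49F cells, against 68.8% of all genes. At pH 6.0, 21 differed, 8 higher and 13 lower, against 75.5%. Without Eda2r and Tnfsf18 these were 24 of 25 at pH 7.4, 10 higher and 14 lower, and 19 of 25 at pH 6.0, 7 higher and 12 lower. Some members passed the filter only through the line in which they were high, so these counts are a description. Several members had far higher levels in the NRK-49F line. Tnfrsf1b was at 50.8 ± 2.68 FPM (SD, n = 6) in NRK-49F cells and 0.308 ± 0.370 FPM (SD, n = 6) in NRK-52E cells at pH 7.4. Fas was 22.2-fold lower in NRK-52E cells at pH 7.4 (-4.48 ± 0.27, adjusted p = 2.81e-13) and 9.22-fold lower at pH 6.0. Eda was at least 56.9-fold higher in NRK-49F cells at pH 7.4 and at least 48.6-fold at pH 6.0, against the mean level of 3 counts over the NRK-52E libraries. Tnfrsf11b was at least 160-fold higher there at pH 6.0 by the same reckoning.

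Fewer members had their higher level in NRK-52E cells. Tnfrsf25 was 8.52-fold higher there at pH 7.4 (3.09 ± 0.13, adjusted p = 6.1e-16) and 2.42-fold higher at pH 6.0. Tnfsf13 was 3.41-fold higher at pH 7.4 (1.77 ± 0.21, adjusted p = 6.01e-08), and at pH 6.0 all samples together gave -0.15 ± 0.22 (adjusted p = 0.538). That value joined differences of opposite sign, as Tnfsf13 was higher in NRK-52E cells in sample groups 1 and 4 alone (0.59, adjusted p = 0.00778) and lower in sample groups 3 and 6 alone (-1.07, adjusted p = 0.000106). Ltb was higher in NRK-52E cells at pH 7.4 (adjusted p = 2.25e-05), against a level not detected by the median in NRK-49F cells, and at pH 6.0 it was not detected by the median in either line. Tnfrsf21 was higher in NRK-52E cells at both pH values, 3.05-fold at pH 7.4 and 2.43-fold at pH 6.0. Ltbr was lower in them by a log2 difference of 0.45 at pH 7.4 and 0.46 at pH 6.0.

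**Figure D3:**
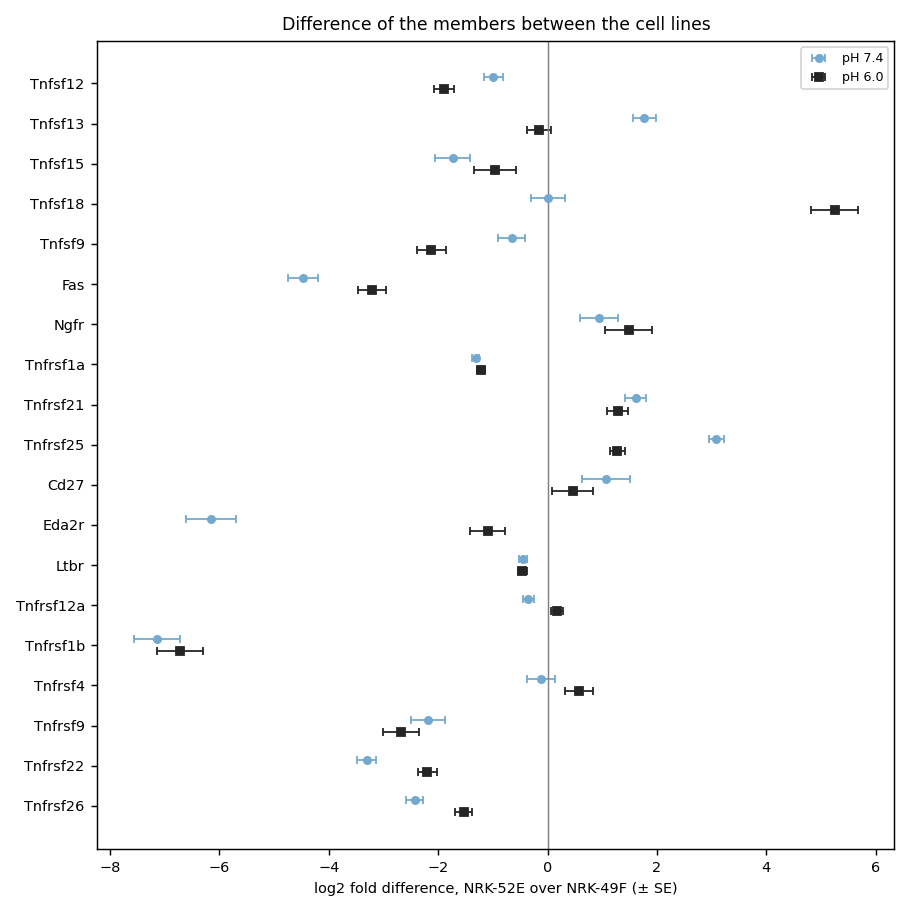
Log2 fold difference of each member between NRK-52E and NRK-49F cells (horizontal axis, ± SE) at pH 7.4 (circles) and pH 6.0 (squares), with values above 0 higher in NRK-52E cells. Eda, Tnfrsf11b and Ltb are not drawn, as they were at or near the detection limit in 1 or both lines. Eda2r and Tnfrsf1b are drawn, but neither was detected by the median in NRK-52E cells at pH 7.4. Their values at that pH are no measure of size. Tnfsf18 moves from 0.01 at pH 7.4 to 5.25 at pH 6.0, and Tnfrsf25 from 3.09 to 1.28.

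Some members changed by different amounts in the sample groups of NRK-52E cells. Without Eda2r and Tnfsf18, the change with pH differed between sample groups 1 and 3 for 3 of 25 tested members, the ligands Tnfsf12, Tnfsf13 and Tnfsf9, a share near the 10.6% of all genes. Tnfsf12 went from 29.2 to 24.2 FPM on average in sample group 1 and from 29.4 to 11 FPM in sample group 3, a difference of 1.14 ± 0.15 in log2 fold change (adjusted p = 5.11e-05). Tnfsf13 went from 29.2 to 9.76 FPM and from 29.5 to 4.07 FPM, a difference of 1.28 ± 0.21 (adjusted p = 0.000514). Both were thus alike in the sample groups at pH 7.4 and lower in sample group 3 at pH 6.0. In an analysis of sample groups 1 and 4 alone, the fall of Tnfsf12 in NRK-52E cells did not pass the test (adjusted p = 0.0758). Tnfsf9 went from 3.89 to 2.60 FPM and from 3.18 to 0.920 FPM (1.17 ± 0.35, adjusted p = 0.0369), a call lost when any of 8 single replicates was left out. In NRK-49F cells 0 of 27 members and 0 of all 14777 genes (0%) differed between sample groups 4 and 6 by edgeR, with 1 member and 596 genes at an unadjusted p under 0.05, and DESeq2 called 0 members and 10 genes.

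**Figure D4:**
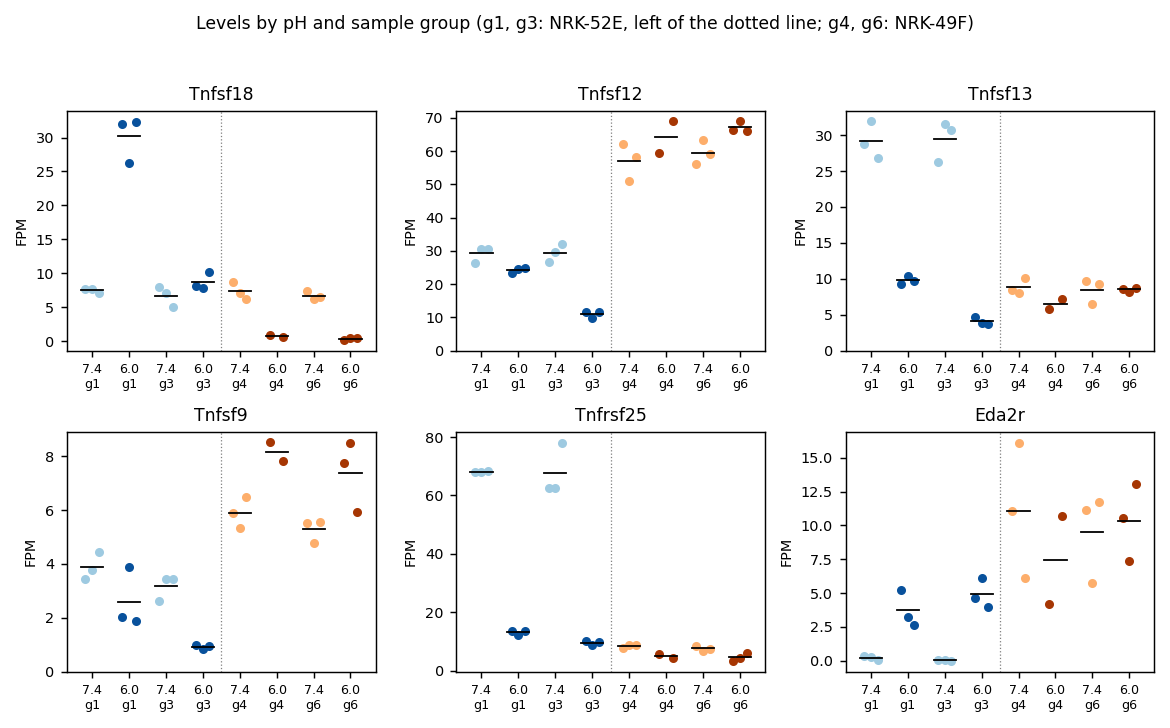
Level in FPM (vertical axes, linear) of 6 members by pH and sample group (horizontal axes, g1 and g3 for NRK-52E, g4 and g6 for NRK-49F). Points are samples and lines are means of 3 samples, or of 2 for g4 at pH 6.0. Tnfsf18 is at 26.3 to 32.3 FPM at pH 6.0 in sample group 1 and at 7.89 to 10.3 FPM in sample group 3, and Tnfsf12 and Tnfsf13 are lower in sample group 3 than in sample group 1 at pH 6.0.

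The receptors' signals pass through a set of adaptors, kinases, ubiquitin ligases and inhibitors, of which a list of 44 genes was taken. Of its 42 tested genes, 22 changed in NRK-52E cells, 8 higher and 14 lower, with a median log2 fold change of 0.03. In NRK-49F cells 12 changed, 4 higher and 8 lower, with a median of -0.09. These shares, 52.4% and 28.6%, were close to the 61.2% and 28.9% of all genes. Fadd, the adaptor that links death domains to caspases, fell in NRK-52E cells from 15.8 to 20.5 FPM to 6.65 to 8.66 FPM (-1.23 ± 0.08, adjusted p = 4.85e-12). Tnfaip3, an inhibitor of NF-kappaB signalling that is itself induced by it, fell from 12.6 to 21.5 FPM to 3.46 to 7.22 FPM (-1.74 ± 0.19, adjusted p = 5.01e-08).

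Tnip2, which binds Tnfaip3, rose from 16.0 to 19.3 FPM to 39.3 to 45.8 FPM (1.22 ± 0.09, adjusted p = 4.66e-11), and Chuk, a kinase of the IkappaB kinase complex, and Nfkb2 rose by 0.74 and 0.58 on the log2 scale. Traf1 was at or near 0 in NRK-52E cells, with at most 0.226 FPM. In NRK-49F cells Bid, which carries the signal of caspases to mitochondria, rose from 32.9 to 40.5 FPM to 57.7 to 64.9 FPM (0.75 ± 0.11, adjusted p = 1.97e-05). Tnip2 and the inhibitor Nfkbia rose by 0.38 and 0.29, and Casp8, the initiator caspase of Fas and Fadd, Nfkbie and Traf5 fell by 0.42, 0.37 and 0.31 on the log2 scale.

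A second list held 25 genes that TNF is known to induce through NF-kappaB. Of 24 tested, 17 changed in NRK-52E cells, 5 higher and 12 lower, and 10 in NRK-49F cells, 5 higher and 5 lower, that is 70.8% and 41.7% of those tested, with median log2 fold changes of -0.49 and -0.13. Over all genes the shares were 61.2% and 28.9% and the medians -0.12 and 9e-04. C3, the central complement protein, fell in NRK-49F cells from 23.4 to 33.5 FPM to 2.93 to 5.23 FPM (-2.68 ± 0.17, adjusted p = 2.66e-11). Cxcl1, a chemokine for neutrophils, fell there from 65.3 to 106 FPM to 30.6 to 52.7 FPM (-1.002 ± 0.27, adjusted p = 0.00646), and Ptgs2 fell by 0.73 on the log2 scale. Ier3, Mmp9 and Sod2, with means of at least 1 FPM over all samples, rose there by 0.90, 0.69 and 0.54. Il6, under that mean, rose more there (3.43 ± 0.43, adjusted p = 1.83e-06). It went from 0.0700 to 0.270 FPM at pH 7.4 to 1.34 to 4.38 FPM at pH 6.0.

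In NRK-52E cells the cytokine Lif rose by 1.06 ± 0.12 on the log2 scale (adjusted p = 6.93e-08), and Nfkb2 and Bcl3 by 0.58 and 0.50. The 3 largest falls of that list in NRK-52E cells were those of Vcam1, Ccl2 and Traf1, which had means of 1.20, 1.05 and 0.122 FPM at pH 7.4 and of 272, 270 and 13.3 FPM in NRK-49F cells at the same pH. In replicate A021 Vcam1 was at 4.00 FPM and Ccl2 at 3.44 FPM, the highest levels of both among NRK-52E samples, and the part of this in their fall was not tested. Besides these, the list's fall in NRK-52E cells included Tnfaip3 and, from 52.7 to 14.4 FPM on average, C3.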

How the data were processed

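Per the labels and the study's methods, poly(A) RNA of the rat cells was sequenced in read pairs, and the authors deposited raw counts per Ensembl gene, made with HISAT2 (2.1.0 per the labels) and featureCounts with multi-mapping reads counted and no normalization. The labels name the build rn6 and the methods rn7, and no coordinates of the counts are used here. Groups follow the labels. Of the per-sample columns, 23 were used and 13 were not, as they matched no sample label used here. Human samples were not analysed here.

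The members, roles and lists were chosen with earlier results of these data known, and the lists come from general knowledge. Members are named singly when their mean reached 1 FPM in a condition, and list genes as the 3 largest rises and falls past the threshold per line with a mean of at least 1 FPM. All 23 samples were fitted in 1 model with 4 conditions, and with 8 for the sample groups, in R 4.3.3 with edgeR 4.0.16 (filterByExpr, minimum count 10, minimum total 15, TMM, quasi-likelihood test). Adjusted p values are Benjamini-Hochberg values over all 14777 genes tested, at a threshold of 0.05, and adjusted p stands for these throughout. The SE is the log2 fold change divided by the square root of F. A gene at or under 3 counts in all samples of a group enters folds at the mean level of 3 counts of those libraries, as a lower bound. Steps were tested on simulated data. Alternatives were RLE and upper quartile scaling, DESeq2 1.42.0, other filters, thinned libraries, each line or sample group alone, sample group as a block, and each replicate left out. RefSeq tables of GRCr8 gave neighbours and upstream windows. The plots were made in Python 3.11.15 (matplotlib 3.10.9).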

Additional observations from a re-analysis of the deposited data

Results flagged for a closer look

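Single samples stood apart from the rest of their group in 5 of the 72 sets of a member and a condition that were examined (gap to the nearest sample over the range, Dixon's 95% value), where chance alone flags about 1 in 20. In NRK-52E cells at pH 7.4 replicate A035 was apart for Tnfrsf22 (18.3 FPM, others 11.7 to 14), Tnfrsf25 (78.0 FPM, others 62.5 to 68.2) and Tnfsf18 (5.04 FPM, others 7.04 to 7.92). In NRK-49F cells at pH 7.4 replicate A053 was apart for Tnfrsf1a (82.8 FPM, others 90.1 to 93.5) and replicate A041 for Tnfrsf26 (88.3 FPM, others 101 to 108).

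The change with pH differed between the cell lines by the test of the difference for Fas (1.27 on the log2 scale, NRK-52E minus NRK-49F), Tnfrsf12a (0.53), Tnfrsf22 (1.10), Tnfrsf25 (-1.82), Tnfrsf26 (0.90), Tnfsf12 (-0.91), Tnfsf13 (-1.92), Tnfsf9 (-1.47) and, with means under 1 FPM, Tnfrsf13c (3.11). Ltb (-3.78) and Tnfrsf11b (-4.59) were called from groups at or near 0, so that these fitted values are no measure of size, and both calls were lost in sample groups 1 and 4 alone. For Eda2r (5.06) and Tnfsf18 (5.24) the difference is given as a description. The values of Tnfrsf13c and Eda2r are no measure of size either, as neither was detected by the median in NRK-52E cells at pH 7.4. Between sample groups 1 and 3 of NRK-52E cells the change differed for Tnfsf12 (1.14), Tnfsf13 (1.28) and Tnfsf9 (1.17), and Tnfsf18 is described at 1.62.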

How the results depend on the processing

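The counts of members called stayed within 1.5 times their value under RLE and upper quartile scaling, DESeq2, calls by both tools, no filter beyond 1 count, thinned libraries, each cell line alone and sample group as a block. With at least 10 counts required in every sample only 12 members were tested, and the counts called were 10 for NRK-52E, 5 for NRK-49F, 8 for the difference between the lines' changes, 11 between the lines at pH 7.4 and 10 at pH 6.0, fewer by construction. With sample groups 1 and 4 alone, 7 members differed in their change between the lines, and with sample groups 3 and 6 alone, 4 signalling genes were called in NRK-49F cells, with fewer samples in both cases. Leaving out 1 replicate gave 18 to 22 members called in the NRK-52E line, 8 to 10 in the NRK-49F line, 12 to 14 for the difference, 23 to 26 and 19 to 22 between the lines at pH 7.4 and pH 6.0, and 3 to 4 and 0 between the sample groups of NRK-52E and of NRK-49F cells.

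Among members of at least 1 FPM, values of the opposite sign, where at least 1 of the values compared was called, were found between the lines at pH 6.0 with sample groups 1 and 4 alone, for Ngfr (-0.046) and Tnfsf15 (0.086), neither of which then passed the test, and for Tnfsf13 (0.587, adjusted p = 0.00778), which passed it there but not in all samples. The cause was not tested. In that analysis, which has fewer samples, calls were also lost in NRK-52E cells for Fas (adjusted p = 0.0534), Tnfsf9 (0.0801), Tnfsf12 (0.0758), Tnfrsf4 (0.194) and Tnfrsf21 (0.0615), in NRK-49F cells for Tnfrsf12a (0.0577) and Ngfr (0.185), and for the difference between the lines' changes of Fas (0.0813), Tnfsf12 (0.0846), Tnfsf9 (0.0634), Ltb (0.71) and Tnfrsf11b (0.132). With sample groups 3 and 6 alone they were lost in NRK-52E cells for Ngfr (adjusted p = 0.395), Tnfrsf21 (0.0738), Eda (0.644) and Tnfrsf11b (0.0604), and for the difference of Tnfrsf12a (0.186) and Tnfrsf11b (0.0787), while Tnfrsf9 was called in NRK-52E cells (0.0201). Tnfrsf4 between the lines at pH 6.0 lost its call without any of 13 single replicates, Eda in NRK-52E cells without any of 5 and Cd27 between the lines at pH 7.4 without any of 4. Members under about 0.2 FPM could not be read at this depth.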
